A study of Mus musculus with 9 samples.

Results

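The genes described here are the heat shock proteins and their co-chaperones. They are the 75 gene symbols, of 18956 in the count table, that start with Dnaja, Dnajb, Dnajc, Hspa, Hspb or Hsp90, that are Bag followed by a digit, or that are Hspd1, Hspe1, Hsph1, Hsf1 or Hsf2, with pseudogenes left out. All 75 passed the filter on low counts, as did 18194 of all symbols. The names alone chose them, so the families hold some members by prefix only: Hspbp1, Hspbap1 and Hspb11 stand with the small heat shock proteins.

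RNA came from brain tissue labelled as the anterior paraventricular nucleus of the thalamus, a midline thalamic nucleus, of BALB/c mice. Each of 3 groups had 3 libraries. The first, labelled NS (non-stressed in the plots), was never defeated and received saline, the second went through 5 days of social defeat (smSDS, exposure to an aggressive mouse) and received saline, and the third was defeated in the same way and received (2S,6S)-hydroxynorketamine, a metabolite of ketamine that the labels call SHNK. Nothing used here gives the dose, its timing, or the age or sex of the mice, and no genetic change is named. Whether a library stands for 1 animal is not stated, so p-values measure only the spread between these samples, which may be technical.

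Chaperones bind proteins that are not yet folded or have lost their fold. HSP70 proteins hold and release short stretches of a client in a cycle driven by ATP. J-proteins (the DNAJ families) deliver clients and start that cycle, and BAG proteins and HSP110 end it by exchanging the nucleotide. HSP90 takes over clients such as kinases and steroid receptors, HSP60 with HSP10 folds proteins inside mitochondria, and small heat shock proteins hold unfolded clients without ATP. Heat shock factor 1 (Hsf1) switches many of these genes on when unfolded protein builds up in the cytosol, through a DNA motif called the heat shock element. The endoplasmic reticulum has a separate response with its own promoter motif.

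Short stretches around those motifs are printed because they show which members carry the element in the window examined, 250 bases before to 50 after each start in RefSeq (GRCm38.p6). The table held windows for 61 of the 75 members, 6 of them among the 9 members whose level changed with SHNK. Hsp90aa1, Hspa8 and Dnajc2, also among those 9, had no window and were not searched, nor were Hsp90ab1 and Hsf1. The heat shock element was searched on both strands as 3 units, GAA and TTC in alternation, with 2 unspecified bases between neighbouring units. It stood in 4 members, 6.56% of the 61, against 0.662% of the 27025 symbols in the table, all windows being of 1 length. Capitals mark the units, including any unit that overlaps them.

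Dnajb6, chr5:29735847-29735869, plus strand: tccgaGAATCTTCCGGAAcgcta
Hspd1, chr1:55088054-55088081, minus strand: gggccTTCCGGAAGGTTCTAGAAcggac
Hspe1, chr1:55088054-55088081, plus strand: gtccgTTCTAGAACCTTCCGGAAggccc
Hsph1, chr5:149636283-149636305, minus strand: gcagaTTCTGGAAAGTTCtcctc

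Hspd1 and Hspe1 are divergent neighbours, and their entries are the same bases read from opposite strands. A shorter form of 2 units, GAANNTTC or TTCNNGAA, which lies within the longer one and was added after the data had been seen, stood in 16 of the 61 members (26.2%) and in 17.0% of all symbols. Among those 16 were Dnaja1, Bag3 and the pair of stress-inducible HSP70 genes, whose printed stretches are identical to each other.

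Dnaja1, chr4:40722339-40722356, plus strand: ctctaGAAAATTCtacga
Bag3, chr7:128523620-128523632, plus strand: gaccaGAAGTTTC
Hspa1a, chr17:34972228-34972285, minus strand: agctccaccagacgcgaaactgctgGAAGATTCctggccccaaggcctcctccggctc
Hspa1b, chr17:34959310-34959367, minus strand: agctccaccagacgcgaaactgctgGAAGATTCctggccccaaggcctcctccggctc

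The endoplasmic reticulum stress element, CCAAT and CCACG with 9 unspecified bases between them, searched on both strands and marked in capitals, stood in 3 members (4.92%) and in 0.137% of all symbols. These 3 members encode the lumenal HSP70 (Hspa5), the lumenal HSP90 (Hsp90b1) and a lumenal J-protein (Dnajc3). A match is a run of letters and not a measured binding site. Only exact letters were searched, so a window without a match may still hold a form with changed letters.

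Hspa5, chr2:34772020-34772048, plus strand: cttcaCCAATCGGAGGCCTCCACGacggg
Hsp90b1, chr10:86705613-86705681, minus strand: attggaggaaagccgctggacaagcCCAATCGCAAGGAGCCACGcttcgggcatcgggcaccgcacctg
Dnajc3, chr14:118937802-118937870, plus strand: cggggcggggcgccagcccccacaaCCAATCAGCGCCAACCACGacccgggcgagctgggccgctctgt

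Total counts ran from 32307869 to 51569143 per library. The markers of the chaperone set, Dnaja1, Hsp90aa1 and Bag3, were counted in every library. Thalamic glutamatergic markers (10 genes, among them Slc17a6 and Calb2) summed to between 3172 and 3880 CPM (read counts scaled to a common library size) in the 9 libraries. Markers of the neighbouring habenula summed to 75.3 to 139 CPM in never defeated saline, 240 to 761 in defeated saline and 42.5 to 48.7 in SHNK. Ependymal and ciliary markers (12 genes) ran 99.9 to 118, 190 to 285 and 107 to 163 CPM in the same order, and defeated saline replicate 2 was highest on both lists. Astrocyte markers ran 4694 to 4927, 4067 to 5307 and 3650 to 3985 CPM. Of the 10 habenula genes tested, 9 were higher after defeat and 10 lower with SHNK, and for the 12 ependymal genes these numbers were 8 and 10. For the 10 astrocyte genes they were 2 and 6, and of the 10 thalamic glutamatergic genes 0 passed in edgeR's test after defeat (0 at an unadjusted p under 0.05) and 1 was higher with SHNK (3 higher and 1 lower at an unadjusted p under 0.05). Choroid plexus genes (9 tested) had 2 higher after defeat and 3 lower with SHNK, and immediate early genes (18 tested) 1 lower after defeat, then 3 higher and 1 lower with SHNK. Of 12 vascular genes 1 was lower with SHNK, and for oligodendrocyte genes (10, of which 4 had an unadjusted p under 0.05 with SHNK) and microglia genes (10, of which 1 did) edgeR, DESeq2 and limma voom each called 0 in both comparisons. Bulk RNA does not separate fewer cells of a type from less RNA per cell, and the part of these lists in the results below was not tested.

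The largest members by level were cytosolic. On a scale of reads per exon length, brought to the same total in every library and averaged over the 9 libraries, Hsp90ab1, the constitutive cytosolic HSP90, stood at 1937 and Hspa8, the constitutive cytosolic HSP70, at 1886. Hsp90aa1, the other cytosolic HSP90, followed at 983, the BAG protein Bag1 at 670 and the HSP70 nucleotide exchange factor Hspbp1 at 494. Next came the endoplasmic reticulum pair Hspa5 (385) and Hsp90b1 (335), and then mitochondrial Hspd1 (315). In never defeated saline Hsp90ab1 (1892 ± 83.1) and Hspa8 (1865 ± 133; mean ± SD, 3 libraries) lay within their spread of each other, as they did in SHNK (2013 ± 43.6 and 1996 ± 81.4). In defeated saline their means were 1905 ± 81.4 and 1796 ± 32.05. Hsp90aa1 (911 ± 54.0, 909 ± 41.8 and 1130 ± 25.7) lay below both and above Bag1 (676 ± 31.7, 662 ± 37.3 and 672 ± 13.4) by more than the SDs in all 3 groups.

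**Figure D1:**
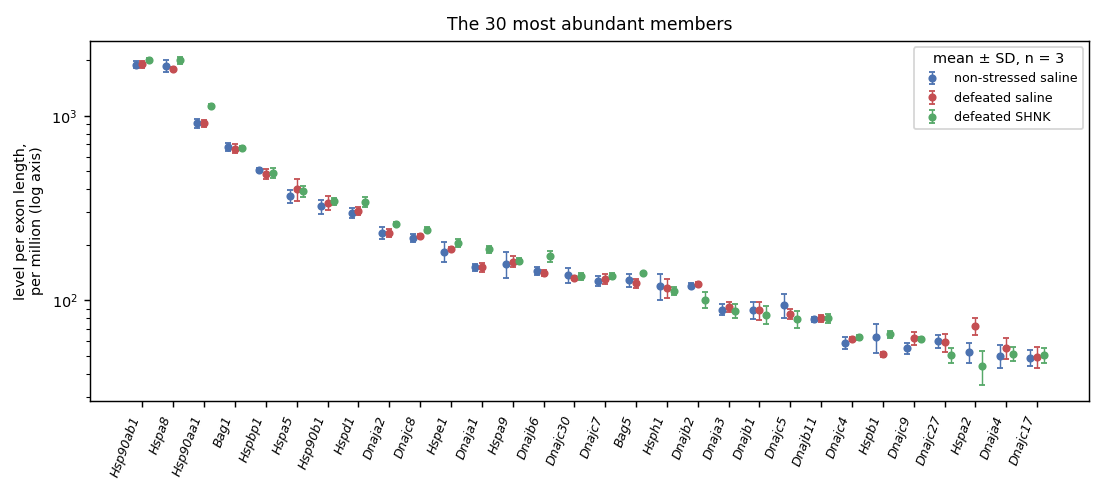
Level per exon length (log axis) of the 30 most abundant members, with the mean and SD of the 3 libraries of each group. Hsp90ab1 (1937 over all libraries) and Hspa8 (1886) stand above Hsp90aa1 (983), and for Hsp90aa1 the SHNK mean (1130) stands above both saline means (911 and 909).

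A single member held most of several families. Hspa8 made up 68.1% of the per-length sum of the 14 HSP70 and HSP110 members, Hsp90ab1 59.5% of the 3 HSP90 members, and Bag1 77.9% of the 6 BAG members. The heat-inducible HSP70 genes were far lower: the level per length was 9.35 ± 2.70 for Hspa1a and 5.99 ± 2.92 for Hspa1b in never defeated saline. Members varied less between libraries of a group than most genes did, with a median within-group SD of 0.119 in log2 CPM against 0.182 over all tested genes. The genes were not matched for level, so whether this holds at equal level was not tested. The 4 DNAJA genes varied least as a family (0.0657) and the 8 HSPB genes most (0.242). Within families, Hspa8 had an SD of 0.043, while Hspa1a, Hspa1b and Hspb2, a small heat shock protein of muscle with as few as 5 reads in a library, had 0.317, 0.452 and 0.717.

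Social defeat was read from defeated saline against never defeated saline. Only Dnajb13 passed the threshold, an adjusted p under 0.05 (edgeR's quasi-likelihood test, Benjamini-Hochberg over all 18194 genes). That is 1.33% of the members, against 1.17% of all tested genes (1.15% higher and 0.0165% lower). Dnajb13 encodes a J-protein of the radial spokes of motile cilia. It lies on chr7:100501716-100514960 (minus strand; this and the later gene coordinates are from GENCODE M21, GRCm38). Dnajb13 had 1.93, 1.82 and 1.59 CPM in never defeated saline, 4.01, 4.90 and 5.04 in defeated saline, and 2.73, 2.49 and 2.88 in SHNK. The 3 groups did not overlap. It rose 2.61-fold with defeat, a log2 fold change of 1.38 ± 0.192 (SE, as after each fold change below; adjusted p = 0.00561). The call held when any 1 of the 9 libraries was left out, with adjusted p between 0.00282 and 0.0411. Of the 12 ependymal and ciliary markers, 8 rose in the same comparison, and the part of such cells in the Dnajb13 result was not tested. Dnajb13 overlaps Ucp2 on the opposite strand and shares 8.24% of its 75-base stretches with that gene's transcripts; Ucp2 itself had 82.7 to 96.4, 74.2 to 105 and 73.5 to 82.8 CPM in the 3 groups.

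The 6 members with the next smallest p after defeat were Hspa2, Hspb8, Hspb6, Dnajc6, Dnajc3 and Hspb1. Hspa2, an HSP70 best known from male germ cells, had 47.5, 40.3 and 47.3 CPM without defeat and 62.8, 65.4 and 56.3 after it, with no overlap (log2 fold change 0.45 ± 0.117, adjusted p = 0.0923). Hspb8, the small heat shock protein that works with Bag3, had 8.53, 6.20 and 8.12 against 8.72, 16.2 and 15.5 CPM (0.82 ± 0.240, adjusted p = 0.156). Its defeated replicate 1 sat just above the never defeated libraries and the other defeated libraries far above them. Without that replicate Hspb8 passed (adjusted p = 0.0205), and Hspa2 passed without SHNK replicate 1 (0.0346). DESeq2 called both, at 0.0165 for Hspa2 and 0.0192 for Hspb8, and with Dnajb13 it called 4% of members, against 2.60% of all genes. Hspb6, another small heat shock protein, had a log2 fold change of 0.55 ± 0.179 (adjusted p = 0.223), and Hspb1 one of -0.34 ± 0.139 (adjusted p = 0.409). Dnajc6, the J-protein auxilin that uncoats clathrin vesicles, stood at -0.22 ± 0.0834 (0.362) and Dnajc3, the lumenal J-protein, at 0.21 ± 0.0789 (0.366).

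The rest of the members gave no call after defeat. At an unadjusted p under 0.05 there were 7 members (9.33%), 5 higher and 2 lower, against 9.45% of all genes (6.08% higher, 3.37% lower). In 8 members the groups did not overlap (10.7%; 6 higher, 2 lower), against 12.9% of all genes (7.36% and 5.53%). The median log2 fold change of the 75 was -0.0096 and that of all genes -0.017, and 46.7% of members were above 0 against 45.5% of genes. The heat-inducible pair did not pass: Hspa1a had 11.4, 6.86 and 8.83 CPM before and 13.1, 9.92 and 7.71 after, and Hspa1b 8.22, 3.63 and 4.47 before and 8.53, 6.68 and 4.59 after. These values overlap widely. Their log2 fold changes were 0.18 ± 0.204 and 0.27 ± 0.280, so a change of that size was within the error. Hsf1 (31.6 ± 6.42 CPM and 31.0 ± 1.11) and the J-protein Dnajb1, a classical heat-inducible partner of HSP70 (92.8 ± 7.17 and 90.3 ± 7.51), also did not pass.

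SHNK was read against defeated saline. In this comparison 9 members changed, 12% of the 75, against 6.41% of all genes. Of these, 6 rose (8% of members; 2.45% of all genes rose) and 3 fell (4%; 3.96% of all genes fell). The risers were cytosolic HSP90 and HSP70 and proteins that work with HSP70: Hsp90aa1, Hspa8, the J-proteins Dnaja1, Dnajb6 and Dnajc2, and Bag5. The 3 that fell were Hspa2, Bag3 and Dnajb13. The 2 comparisons share the defeated saline libraries, so values in one are not independent of those in the other.

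Dnaja1, a farnesylated J-protein that partners Hspa8, lies on chr4:40722150-40737149 (plus strand). It had 432, 436 and 415 CPM in never defeated saline, 419, 429 and 405 in defeated saline, and 516, 551 and 602 in SHNK. All 3 SHNK libraries lay above all 6 others. It rose 1.33-fold against defeated saline, a log2 fold change of 0.41 ± 0.0761 (edgeR adjusted p = 0.00853). The call was lost when SHNK replicate 3, the highest library, was left out (adjusted p = 0.0531). Dnaja1 overlaps Smu1 on the opposite strand, and Smu1 is among the genes that share 75-base stretches with it. Smu1 itself had 130 to 139, 135 to 139 and 149 to 156 CPM in the 3 groups. Its log2 fold change with SHNK was 0.16 ± 0.0708 (edgeR adjusted p = 0.201), and its part in the Dnaja1 counts was not tested.

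Hsp90aa1 is the more inducible of the cytosolic HSP90 genes (chr12:110690605-110702728, minus strand). Its libraries stood at 1144, 1276 and 1104 CPM, then 1068, 1164 and 1204, and with SHNK at 1440, 1500 and 1609. Again the SHNK libraries lay above all others. Hsp90aa1 rose 1.32-fold (log2 0.40 ± 0.0816, adjusted p = 0.0130). It missed the threshold without defeated saline replicate 1 (0.0504), SHNK replicate 2 (0.0575) or SHNK replicate 3 (0.0758). The other cytosolic HSP90, Hsp90ab1, had 1717, 1861 and 1919 CPM in defeated saline and 1999, 2097 and 2082 in SHNK, without overlap, and did not pass (log2 0.17 ± 0.0708, adjusted p = 0.169).

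Dnajb6, a J-protein that keeps aggregation-prone proteins soluble, lies on chr5:29735688-29818134 (plus strand). It had 290, 298 and 275 CPM, then 276, 275 and 270, and 331, 347 and 400 with SHNK. The 3 SHNK libraries lay above the rest, and replicate 3 was well above the other two. Dnajb6 rose 1.31-fold (log2 0.39 ± 0.0817, adjusted p = 0.0147). It was no longer called without defeated saline replicate 2 (0.0557), SHNK replicate 2 (0.0552) or SHNK replicate 3 (0.0823). Its promoter window carries the 3-unit heat shock element printed above, as do those of Hspd1, Hspe1 and Hsph1, of which edgeR called 0 and DESeq2 Hspd1.

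Dnajc2 is the J-protein of the ribosome-associated complex, which meets new chains as they leave the ribosome (chr5:21757267-21785251, minus strand). Dnajc2 stood at 41.3, 44.0 and 38.9 CPM, then 37.8, 39.5 and 43.9, and 48.5, 51.9 and 55.1 with SHNK, where no library overlapped. It rose 1.28-fold (log2 0.36 ± 0.0922, adjusted p = 0.0347). Its partner in that complex, Hspa14, had a log2 fold change of 0.15 and was not called. Leaving out defeated saline replicate 1 or 2, or SHNK replicate 2 or 3, each ended the Dnajc2 call, with adjusted p of 0.128, 0.113, 0.126 and 0.165.

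Bag5, a BAG protein that exchanges the nucleotide of HSP70, lies on chr12:111709488-111713257 (minus strand). It had 110, 102 and 104 CPM, then 102, 99.4 and 96.5, and 115, 120 and 126 with SHNK. Hspa8, the most abundant HSP70 (chr9:40800984-40810087, plus strand), had 2736, 2591 and 2552, then 2402, 2480 and 2548, and 2883, 3004 and 2894. In both genes the SHNK libraries lay above the 6 others. Bag5 rose 1.21-fold (log2 0.27 ± 0.0756, adjusted p = 0.0466) and Hspa8 1.18-fold (log2 0.24 ± 0.0676, adjusted p = 0.0495). Both calls sat at the threshold: the Bag5 call survived 2 of the 9 single-library omissions and the Hspa8 call 1, with adjusted p up to 0.194 and 0.191, and both were lost under upper-quartile scaling (0.0511 and 0.0536).

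Just outside the threshold stood 3 members with the next smallest p, named after their values had been seen. Dnaja2, a J-protein that partners Hspa8, had 208, 228 and 225 CPM in defeated saline and 256, 271 and 266 in SHNK (log2 0.26 ± 0.0737, adjusted p = 0.0503), and was called by DESeq2 (0.0136) and limma voom (0.0143). Hspd1, the mitochondrial HSP60, had 264, 260 and 253 against 304, 288 and 329 (0.24 ± 0.0742, adjusted p = 0.0651), and Hspb1, a small heat shock protein, 16.6, 17.1 and 16.9 against 20.9, 23.7 and 24.5 (0.45 ± 0.138, adjusted p = 0.0677). In each of them the SHNK libraries lay above the defeated saline libraries, as they also did in Bag5 and Hspa8 just inside it. For Hspb1 the SHNK libraries overlapped never defeated saline, which ran from 16.2 to 24.1.

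**Figure D2:**
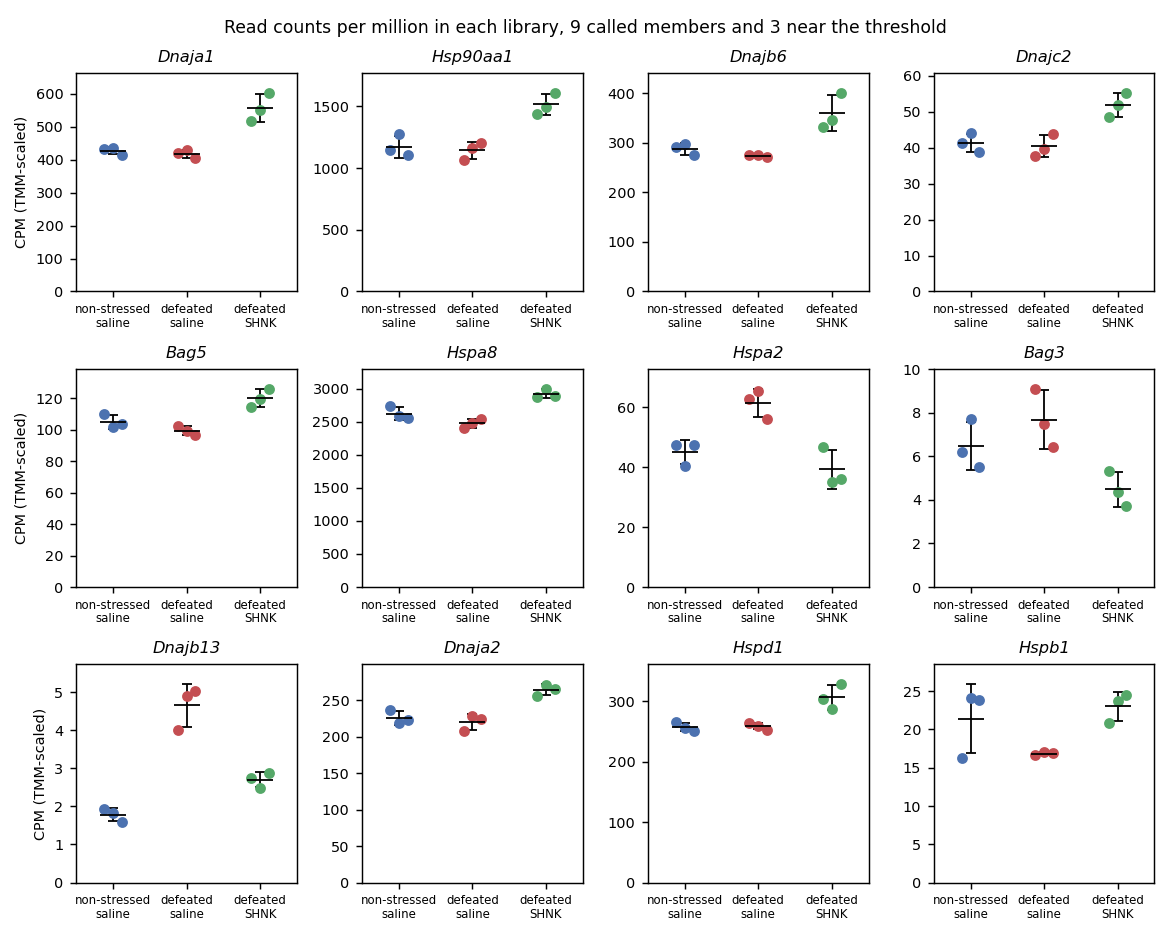
CPM in each library for the 9 members that changed with SHNK and the 3 next in order of p; points are libraries, the horizontal bar is the group mean and the whiskers are the SD of 3 libraries. Dnaja1 shows SHNK libraries at 516 to 602 CPM above all others, and Dnajb13 shows 3 separate groups.

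The members that fell with SHNK were low or moderate in level. Hspa2 (chr12:76404176-76406938, plus strand) had 62.8, 65.4 and 56.3 CPM in defeated saline and 46.7, 34.9 and 36.2 in SHNK. The SHNK libraries lay below defeated saline and overlapped never defeated saline, whose values are given above. It fell to 0.638 of the defeated saline level (log2 -0.65 ± 0.117, adjusted p = 0.00807), and missed the threshold without SHNK replicate 2 (0.0524) or 3 (0.0568). Bag3, the BAG protein that directs clients to autophagy (chr7:128523616-128546981, plus strand), had 6.20, 7.71 and 5.52, then 9.11, 7.50 and 6.45, and 5.34, 4.38 and 3.72 CPM. Its SHNK libraries were below all 6 others, by a small margin. It fell to 0.584 (log2 -0.78 ± 0.190, adjusted p = 0.0291), a call that ended without defeated saline replicate 1 (0.111) or 2 (0.0734) or SHNK replicate 2 (0.113) or 3 (0.148). Dnajb13 fell to 0.580 (log2 -0.79 ± 0.185, adjusted p = 0.0252) and was not called without defeated saline replicate 2 (0.0878) or 3 (0.0723), or SHNK replicate 2 (0.119) or 3 (0.0885). Of the 12 ependymal markers 10 fell in this comparison, as did 10 of 10 habenula markers and 6 of 10 astrocyte markers, while 4 of 5 blood genes rose, and their part in these changes was not tested.

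Single libraries decided much of the SHNK count. It was 9 with all libraries, 0 without SHNK replicate 3, 1 without SHNK replicate 2 (Dnaja1), 3 without defeated saline replicate 2 and 5 without defeated saline replicate 1. The calls over all genes went from 1167 to 176, 238, 367 and 653 in those 4 fits. DESeq2 called 14 members (18.7%, against 10.9% of all genes) and limma voom 15 (20%, against 13.1%), and all 9 were among them both times. In every alternative run, each of the 9 members kept its direction.

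Beyond the calls, more members lay above 0 than below. With SHNK 46 of 75 (61.3%) had a log2 fold change above 0, against 48.7% of all genes, and the medians were 0.09 and -0.0091. At an unadjusted p under 0.05 there were 22 members (29.3%), 16 higher and 6 lower, against 23.3% of all genes (10.6% higher, 12.8% lower). The groups did not overlap in 28 members (37.3%; 21 higher, 7 lower), against 30.4% of genes (14.4% and 15.9%). Among these were the distant HSP70 relative Hspa12a (log2 0.29 ± 0.0911, adjusted p = 0.0745), the HSP110 relative Hspa4l (0.26 ± 0.0883, 0.0986) and Dnajc21, a J-protein of ribosome assembly (0.28 ± 0.0854, 0.0690). Dnajb2, a J-protein of neurons, lay lower (-0.19 ± 0.0773, adjusted p = 0.151) and Dnajc8, a J-protein of the spliceosome, higher (0.20 ± 0.0805, 0.145).

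By family, HSP90 had 1 of 3 members called, DNAJA 1 of 4, DNAJB 2 of 11 in opposite directions and DNAJC 1 of 25. HSP70 and HSP110 had 2 of 14 in opposite directions and BAG 2 of 6 in opposite directions. Over all genes 6.41% were called, and the share of a family rests here on 1 or 2 genes. HSPB (8), the HSP60 and HSP10 pair and the heat shock factors (2) had 0 calls in edgeR's test. At an unadjusted p under 0.05 they had 2, 1 and 0, where the share over all genes was 23.3%. DESeq2 called Hspb1 (adjusted p = 0.0221) and Hspd1 (0.0225), and limma voom Hspb1 (0.0268) and Hspb8 (0.0494). Summed CPM of the DNAJA family was 815 to 846, 798 to 846 and 959 to 1038 in the 3 groups. HSP60 and HSP10 together stood at 339 to 360, 348 to 351 and 394 to 438. The members as a whole took 1.16% to 1.24% of all counts in never defeated saline, 1.17% to 1.24% in defeated saline and 1.30% to 1.32% in SHNK. In this sum the most abundant members weigh most, and 29 of the 75 lay below 0 with SHNK against defeated saline.

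**Figure D3:**
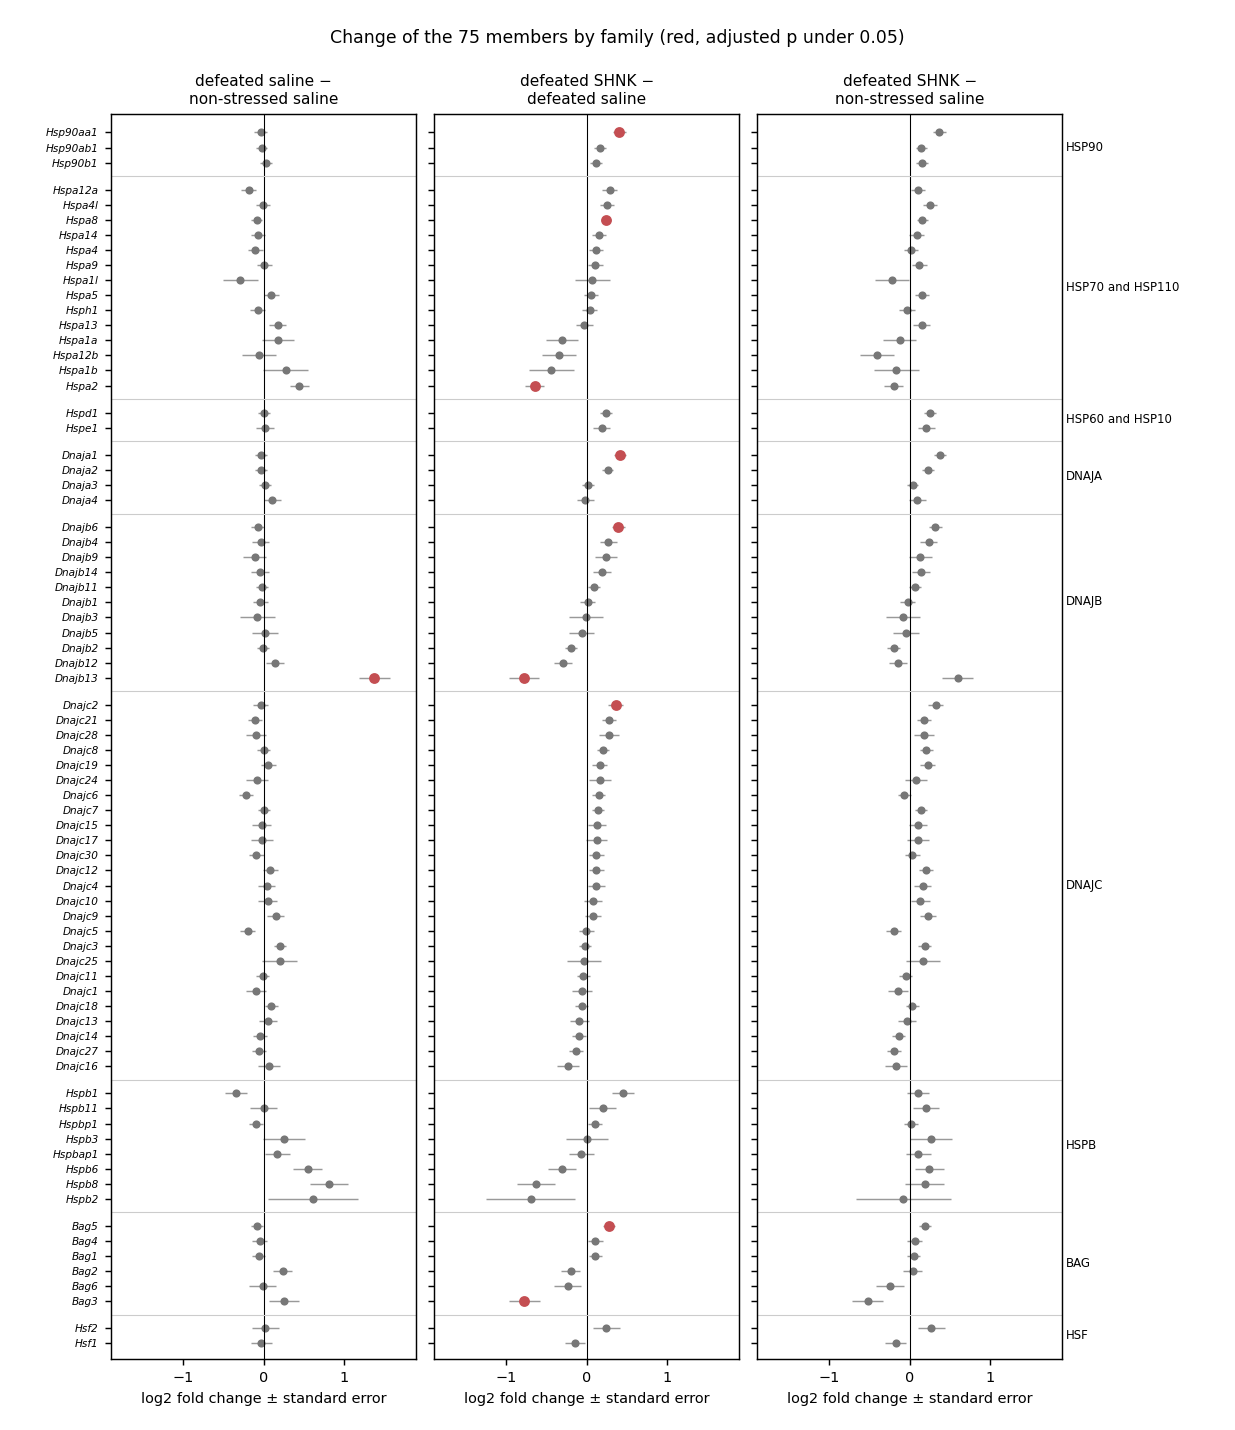
Log2 fold change of the 75 members, by family, in each of the 3 comparisons, with whiskers of 1 SE and red points for an adjusted p under 0.05. Dnajb13 is the red point after defeat, 9 points are red for SHNK against defeated saline and 0 for SHNK against never defeated saline.

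A grouping by compartment, drawn up after the values had been seen, is given as a description. The cytosolic HSP90 and HSP70 core had 7 genes (Hsp90aa1, Hsp90ab1, Hspa8, Hspa4, Hspa4l, Hsph1, Hspa14), of which 2 were called with SHNK. Over all genes 6.41% were called. The 7 had log2 fold changes with SHNK from 0.04 for Hsph1 to 0.40 for Hsp90aa1. Their shared direction carries no weight, since other cytosolic HSP70 members, Hspa2, Hspa1a and Hspa1b, which lay below 0, were not placed in it. The summed CPM of the 7 was 5975 to 6363, 5734 to 6164 and 6895 to 7172, under the same limit. Of the 8 members of the endoplasmic reticulum 0 were called by edgeR, DESeq2 or limma voom and 0 had an unadjusted p under 0.05, with a median of 0.07. Hspa5 had 574, 577 and 474 CPM in defeated saline and 572, 524 and 587 in SHNK (log2 0.05 ± 0.0881, adjusted p = 0.775), and Hsp90b1 421, 468 and 420 against 475, 459 and 484 (0.12 ± 0.0768, 0.391). Both genes overlap between these groups. Of the 8 mitochondrial members 7 were above 0 (87.5%, against 48.7% of all genes) with a median of 0.12. EdgeR called 0 of them, with 1 (Hspd1) at an unadjusted p under 0.05 and called by DESeq2. The HSP10 gene Hspe1, which shares a promoter region with Hspd1, had a log2 fold change of 0.19 ± 0.109 (0.328), and Hspa9, the mitochondrial HSP70, one of 0.11 ± 0.0897 (0.508).

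The heat-inducible HSP70 genes lay on the other side of 0. Hspa1a had 9.17, 7.40 and 8.36 CPM with SHNK and Hspa1b 5.74, 4.40 and 4.51, inside the ranges of defeated saline or just below them. The log2 fold changes against defeated saline were -0.31 ± 0.204 (adjusted p = 0.396) and -0.44 ± 0.280 (0.374). Hsph1 (log2 0.04 ± 0.0941, 0.857) and Dnajb1 (0.01 ± 0.0916, 0.949) were close to 0. Hsf1 stood at 31.7, 29.7 and 31.6 CPM against 29.7, 28.3 and 25.9 (-0.15 ± 0.130, 0.550), and Hsf2, a related factor, at 3.29, 3.60 and 3.38 against 3.62, 4.36 and 4.21 (0.25 ± 0.172, 0.421). The muscle and brain J-protein Dnajb5 (-0.06 ± 0.160, 0.860), the HSP110 relative Hspa4 (0.12 ± 0.0906, 0.482), Dnaja4 (-0.01 ± 0.105, 0.954), Bag1 (0.11 ± 0.0859, 0.485) and Bag2 (-0.20 ± 0.115, 0.318) also missed the threshold. For Hspa1a and Hspa1b the counting step could split reads: they share 61.7% and 55.8% of their 75-base stretches with other transcripts, mostly each other's.

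**Figure D4:**
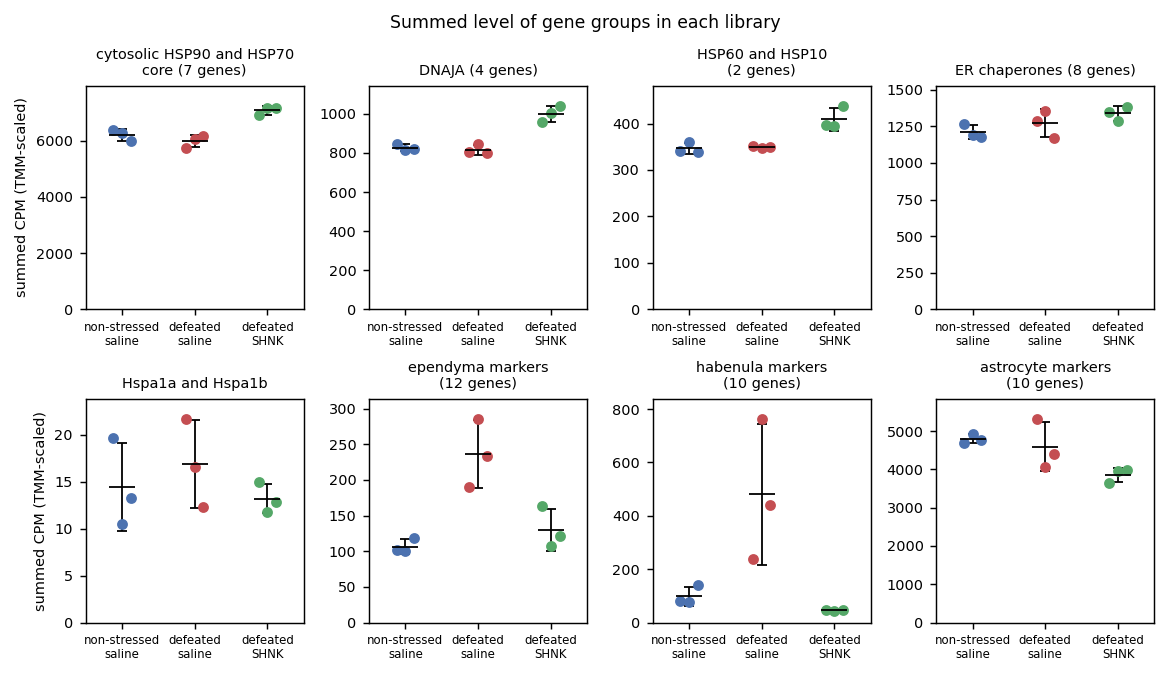
Summed CPM per library of 5 groups of members and of 3 marker lists; points are libraries, bars are means and whiskers the SD of 3 libraries. The cytosolic core and DNAJA lie higher in the SHNK libraries. That core was drawn up after the values had been seen and leaves out Hspa2, Hspa1a and Hspa1b, so its height carries no weight. Hspa1a with Hspa1b overlaps across groups, and the habenula list reaches 761 CPM in 1 defeated saline library.

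Other genes of the same pathways were counted from lists. For SHNK against defeated saline, 5 of the 88 genes on these lists passed in edgeR's test, against 6.41% of all genes. At an unadjusted p under 0.05 there were 27 of the 88, against 23.3% of all genes. Of 23 HSP90 co-chaperones 3 rose with SHNK (13.0%, against 2.45% of all genes), and 0 fell. They were Ppid, a cyclophilin that binds HSP90 (log2 0.42 ± 0.0974, adjusted p = 0.0221), Sugt1, which links HSP90 to kinetochore and immune receptor clients (0.37 ± 0.0897, 0.0284), and Ahsa2, a relative of the HSP90 ATPase activator (0.31 ± 0.0837, 0.0436). Without SHNK replicate 2 or 3, or without defeated saline replicate 1 or 3, the count was 0 each time, and without defeated saline replicate 2 it was 1. The median of the 23 was 0.10, with 18 above 0 (78.3%, against 48.7% of all genes). Of the 14 subunits of the cytosolic chaperonin and of prefoldin 0 passed in edgeR's test, with 2 called by DESeq2 and 2 by limma voom. An unadjusted p under 0.05 was found for 6 (42.9%, against 23.3% of all genes). Above 0 were 13 (92.9%, against 48.7% of all genes), with a median of 0.20.

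Of 29 genes of the endoplasmic reticulum stress response, 1 rose (3.45%, against 2.45% of all genes). It was Asns, asparagine synthetase (0.28 ± 0.0729, adjusted p = 0.0359). This count was 0 without each of defeated saline replicates 1, 2 and 3 and SHNK replicates 2 and 3, and 4 with DESeq2. Of 11 mitochondrial folding and protease genes 0 passed (2, or 18.2%, at an unadjusted p under 0.05, 1 with DESeq2). Of 9 other stress genes 0 passed (4, or 44.4%, at an unadjusted p under 0.05, 2 with limma voom). Over all genes 23.3% had an unadjusted p under 0.05 in this comparison. Of the cold-inducible RNA-binding pair, Rbm3 rose (0.41 ± 0.0970, adjusted p = 0.0258) and Cirbp was at 0.16; the call was lost without defeated saline replicate 1 or 2 or SHNK replicate 2 or 3. Against never defeated saline 0 of the 88 genes of these 6 lists passed in edgeR's test or with limma voom, for defeat or for SHNK. For defeat 3 of the 88 had an unadjusted p under 0.05, where the share over all genes was 9.45%, and DESeq2 called 0. For SHNK 23 did, against 18.3% of all genes, and DESeq2 called 8, against 5.44% of all genes.

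SHNK was also set against never defeated saline, which asks how far the treated libraries stood from the undefeated state. In edgeR's test 0 members passed, against 0.0055% of all genes (0% higher, 0.0055% lower), while 19 members (25.3%) had an unadjusted p under 0.05, 16 higher and 3 lower. Over all genes this share was 18.3% (7.31% higher, 11% lower). Limma voom called 0 members. DESeq2 called 5 (6.67%, against 5.44% of all genes), namely Dnaja1, Hsp90aa1, Dnajb6, Dnajc2 and Hspd1, a share near that of all genes. The smallest adjusted p in edgeR's test were those of Dnaja1 (log2 0.38 ± 0.0761, 0.0686), Hsp90aa1 (0.37 ± 0.0816, 0.0776) and Dnajb6 (0.32 ± 0.0817, 0.0872). Dnaja1 and Hsp90aa1 passed without never defeated saline replicate 2 (0.0318 and 0.0273), a fit that called 2.67% of members and 4.10% of all genes. Bag3 stood at -0.52 ± 0.191 (0.167), Hspa2 at -0.20 ± 0.117 (0.391) and Dnajb13 at 0.60 ± 0.194 (0.131). In 21 members the groups did not overlap (28%; 18 higher, 3 lower), against 21.3% of genes (9.83% and 11.5%), and 52 of 75 (69.3%) were above 0, against 49.2%.

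Asked in 1 test whether the 3 groups differed at all, 6 members passed (8%), against 4.88% of all genes. They were Dnajb13 (adjusted p = 0.00418), Dnaja1 (0.0110), Hspa2 (0.0148), Hsp90aa1 (0.0175), Dnajb6 (0.0245) and Dnajc2 (0.0497). Dnaja1, Hsp90aa1, Dnajb6 and Dnajc2 were highest in SHNK with near-equal saline groups, while Hspa2 and Dnajb13 were highest in defeated saline. The count was 1 without SHNK replicate 2 or 3 and 2 without defeated saline replicate 2. The calls over all genes fell as well in those 3 fits, from 888 to 287, 201 and 187 in the same order. The drop was therefore not particular to the members.

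Several members share sequence with other genes, which matters because nothing used here says how the counting step placed such reads. Of the called members, Hsp90aa1 shares 42.8% of its 75-base stretches with other annotated transcripts, chiefly Gm12346, Hspa8 33.0%, Dnajb6 19.1% and Dnaja1 18.4%, so their counts are uncertain, by an amount that was not measured. Dnajc2 shares 1.86%, and Bag3, Bag5 and Hspa2 share 0%. Among the uncalled members Hspb1 shares 46.4%, with Hsp25-ps1, and Hspd1 31.0%, mostly with Hspd1-ps3. Hsp25-ps1 had 1.84 to 3.95, 2.06 to 2.22 and 2.92 to 3.64 CPM in the 3 groups. Its log2 fold change with SHNK against defeated saline was 0.60 ± 0.255 (edgeR adjusted p = 0.174). That of Hspd1-ps3 was 0.13 ± 0.159 (0.668). The part of these copies in the Hspb1 and Hspd1 counts was not tested. Whether counting used strand is not given either.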

How the data were processed

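The deposited table holds whole-number read counts per gene symbol from bulk RNA sequencing, made by the authors; it has 18956 symbols, a lowest count of 1 and 0 zeros. Per the labels, 100 ng of total RNA entered SMARTer Ultra low and TruSeq libraries. The submitters' processing notes name HISAT2, StringTie, Trimmomatic 0.38 and the builds GRCm38 and mm10; the counting step is not given in the sources used here. Groups were read from the labels, and all 9 libraries entered. Genes were kept with filterByExpr (minimum count 10, minimum total 15; 762 not kept), normalized by TMM and tested with edgeR 4.0.16, in a quasi-likelihood fit of the 3 groups together (R 4.3.3), with Benjamini-Hochberg adjustment over 18194 genes and a threshold of 0.05. The spread between libraries, more than depth, limits precision. CPM values use TMM library sizes, and levels per length use exon unions from GENCODE M21. An SE is the log2 fold change divided by the root of the F statistic. Counts of replicates differed by more than sampling noise. Alternatives were DESeq2 1.42.0, limma 3.58.1 voom with sample weights, other scalings, filters and thresholds, a replicate block, fits of 2 groups and leaving out each library; those for the pathway lists were added after the data had been seen. The script was tested on simulated data, whose planted changes were larger than the rises of the called members with SHNK. That test does not cover rises of their size.

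The members, lists and tests were chosen with earlier results of these data known. Named members are a fixed list of 21, each member called in any of the 4 tests and, per family, the 3 with the smallest p over the 3 groups; of the pathway lists, called genes. Other members are named where they complete a count or describe a level, after their values were seen.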

Additional observations from a re-analysis of the deposited data

How the results depend on the processing

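Of the 34 named members, for which values were computed under every alternative, 0 had a called value that changed sign. For defeat the member count was 1, with 3 under DESeq2, 2 at an adjusted p of 0.1, 7 at an unadjusted p of 0.05, and 1 to 2 with a library left out. For SHNK against defeated saline it was 9, with 14 under DESeq2, 15 under limma voom, 15 at an adjusted p of 0.1, 22 at an unadjusted p of 0.05, and 0 to 10 with a library left out. For SHNK against never defeated saline it was 0, with 5, 3 and 19 under DESeq2 and those thresholds, 0 under limma voom, and 0 to 2 with a library left out. For any difference it was 6, with 13, 11, 12 and 21 under DESeq2, limma voom and those thresholds, and 1 to 7 with a library left out. The cause was not tested where a count moved, except that a looser threshold admits more genes by construction. Same-numbered libraries of different groups correlated between -0.10 and 0.11 over 9 pairs, and differently numbered ones between -0.19 and 0.11. No pairing by number was seen, which with 3 libraries per group does not exclude one. With the replicate block the count for SHNK against defeated saline was 7 (9.33%, against 4.83% of all genes). Scaling alternatives moved the median of all genes by less than 0.1 in log2. For SHNK against defeated saline, DESeq2 size factors gave 10 members (13.3%, against 6.39% of all genes) and upper quartile 7 (9.33%, against 6.32%). Depth limits members with few reads, such as Hspb2 and Dnajb13. Sequence shared with other genes limits members such as Hspa1a, Hspa1b, Hsp90aa1, Hspa8, Hspb1 and Hspd1.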
